A study of Mus musculus with 20 samples.

Results

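The 2 mature arms of the mouse microRNA miR-21, mmu-miR-21-5p and mmu-miR-21-3p, were followed through 4 states of the skin. They were taken by name from the miRNA entries of a table of small RNA counts and are 2 of its 1137 mature miRNAs. Small RNA was sequenced from skin biopsies of FVB/N mice in 4 groups of 5 libraries: healthy skin, hyperplastic skin (thickened, with no tumour), papilloma (a benign epidermal tumour) and cutaneous squamous cell carcinoma (cSCC, the malignant tumour). All 4 groups share the FVB/N background, and the labels name no transgene, no agent that produced the lesions, no age and no sex. They also do not say which libraries came from separate mice, so each p-value covers only how these samples vary, which may be technical in part. Libraries are named here by their group and the number in their label.

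MiR-21 is cut from a hairpin that yields 2 strands. The 5p strand is the guide, which an Argonaute protein keeps and uses to recognise messenger RNAs through its seed, and the 3p strand is the passenger, which is mostly degraded. In mouse and human cells the gene is induced by AP-1 and STAT3, and known targets of the 5p arm include the tumour suppressor Pdcd4 and the Ras pathway inhibitors of the Sprouty family. Mice that lack the gene develop fewer papillomas after chemical carcinogenesis of the skin.

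The mature sequences are shown because the seed (bases 2 to 8, in capitals) sets what each arm can pair with, and because close relatives could share reads with the 5p arm. All 4 come from RefSeq on GRCm38.p6, written 5′ to 3′.
miR-21-5p: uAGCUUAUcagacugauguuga
miR-21-3p: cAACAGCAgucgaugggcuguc
miR-21c: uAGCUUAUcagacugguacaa
miR-21b: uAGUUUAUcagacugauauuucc
The 2 arms have different seeds. Among mature mouse miRNAs of the RefSeq table, only miR-21c has the seed of miR-21-5p, and it shares its first 15 bases. MiR-21b differs within the seed, after the first 3 bases, but matches miR-21-5p again over most of the bases that follow. Neither relative is analysed here. No label or header names the aligner or states how reads with several matches were counted, so reads of either could have gone to miR-21-5p. No other mouse miRNA of that table has the seed of miR-21-3p. Annotations beyond that table were not searched for either seed, so further mouse miRNAs may share them.

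In the deposited table, whose genome build is mm9, the 5p arm was counted over chr11:86397621-86397644 and the 3p arm over chr11:86397583-86397606. On GRCm38 the 92-base hairpin lies on the minus strand at chr11:86584067-86584158, and RefSeq places the 22-base arms at hairpin positions 18 to 39 (5p) and 56 to 77 (3p). This stretch falls inside the last exon of the protein-coding gene Vmp1, in its 3′ untranslated part, on the same strand.

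Library totals ran from 1270588 to 10117810 counts, of which 1060615 to 6904298 were mature miRNA. Every tumour library was shallower than every non-tumour library (3915431 counts at most, against 4753061 at least), and the part of depth in the results below was not tested. The 5p arm had 43262 to 652690 counts per library and the 3p arm 168 to 2156, so counting error is larger for the 3p arm. The epithelial miRNAs miR-205-5p and miR-203-3p, which mark keratinocytes, ranked by their group means 2 and 4 for healthy skin, 2 and 3 for hyperplastic skin, 2 and 3 for papilloma, and 4 and 7 for cSCC. The library labelled hyperplastic 7 stood apart by a low 5p level beside an ordinary 3p level, and whether it is labelled correctly was not tested, so values of hyperplastic skin that rest on it are given with and without it. In such bulk samples, fewer cells of a type and less RNA per cell cannot be told apart.

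MiR-21-5p was among the leading miRNAs of non-tumour skin and the most abundant miRNA of every tumour. Its level, in CPM (mature miRNA counts scaled to a common library total with TMM factors), averaged 31110 ± 12700 for healthy skin, 36300 ± 16900 for hyperplastic skin, 129500 ± 30500 for papilloma and 217800 ± 52100 for cSCC (SD, n = 5 each). MiR-21-3p followed the same course at far lower levels, 107.8 ± 35.5, 141.9 ± 32.7, 389.5 ± 92.3 and 632.5 ± 199 CPM in the same order (SD, n = 5 each). Without hyperplastic 7 the hyperplastic means were 42890 ± 9420 CPM for 5p and 146.1 ± 36.1 CPM for 3p (SD, n = 4). Both arms differed across the 4 groups, with adjusted p = 2.32e-07 for 5p and 6.91e-08 for 3p (edgeR's quasi-likelihood test with Benjamini-Hochberg adjustment over 850 mature miRNAs). That test called 56.0% of the 850, so a call alone does not set the arms apart.

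The 5p level in the 5 healthy libraries (2, 3, 4, 5 and 7) was 31885, 50201, 31394, 27156 and 14931 CPM. In hyperplastic libraries 1, 2, 5, 7 and 8 it was 38316.5, 31824, 51047, 9919 and 50380.4 CPM. These groups overlapped, with healthy 7 and hyperplastic 7 the lowest of each. Papilloma libraries 1, 3, 4, 5 and 6 had 171873, 138071, 121032, 129570 and 87188.5 CPM of 5p. The 5 cSCC libraries (1, 2, 3, 4 and 6) had 208950, 192693, 246408, 288678 and 152223 CPM. Every tumour library was thus above every non-tumour library, while cSCC 6 was the only carcinoma within the papilloma range.

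The 3p level was 116, 154, 92.4, 118 and 58.0 CPM in the healthy libraries and 113, 119, 164, 125 and 188 CPM in the hyperplastic ones, in the same order of libraries. The passenger arm, which is short-lived unless it is loaded into Argonaute, was again lowest in healthy 7, but was ordinary in hyperplastic 7. It was 533, 276, 382, 365 and 392 CPM in papilloma and 635, 583, 541, 965 and 438 CPM in cSCC. The lowest tumour library lay above the highest non-tumour library for this arm too, and 4 of 5 carcinomas lay above all papillomas.

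**Figure D1:**
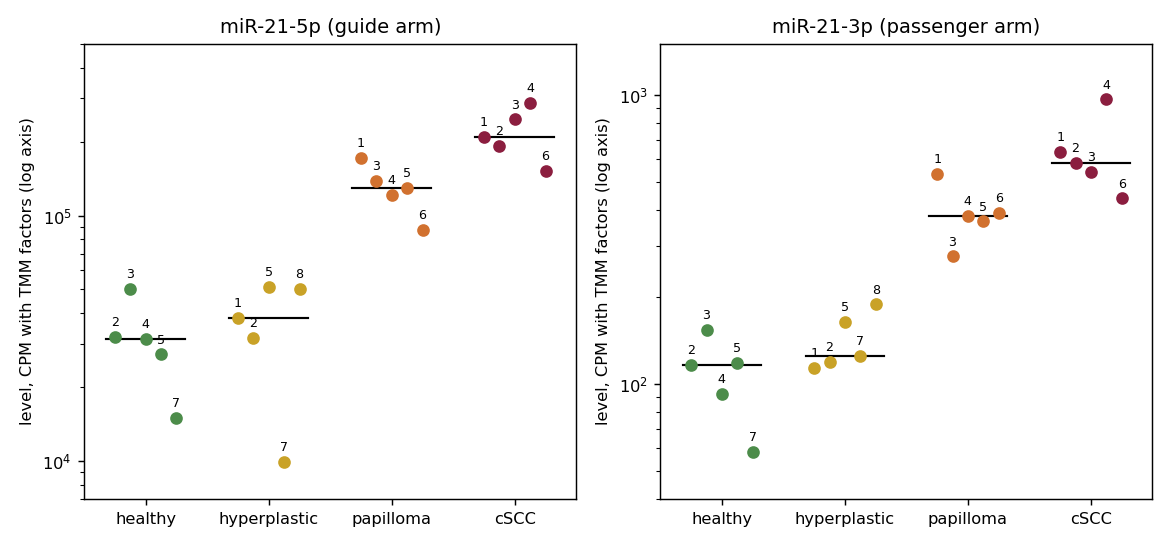
Level of miR-21-5p (left) and miR-21-3p (right) in each of the 20 libraries, in CPM with TMM factors on log axes. Points are libraries with their label numbers and lines are group medians (n = 5 each). All 10 tumour libraries sit above all 10 non-tumour libraries in both panels, and hyperplastic 7 is low in the left panel only.

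The rank of the 5p arm among mature miRNAs made the shift plain. It ranked 1 in all 10 tumour libraries, 5 to 27 in hyperplastic skin and 7 to 23 in healthy skin. As a plain share of mature miRNA reads, with no scaling factor, 5p made up 1.24% to 4.26% of healthy, 0.760% to 5.02% of hyperplastic, 14.5% to 17.2% of papilloma and 19.3% to 23.7% of cSCC libraries. On this scale the carcinomas did not overlap the papillomas, and the papillomas varied little (16.02% ± 1.02, SD, n = 5). How many of all miRNAs separate on this scale was not counted. In CPM 6.0% of them did in cSCC against papilloma. In a fit with no TMM factors the median miRNA differed there by log2 -0.41, so the CPM figure does not carry over. By group mean, the leading miRNA of non-tumour skin was miR-29a-3p, a repressor of collagen messages, at 160300 CPM in healthy and 120400 CPM in hyperplastic skin, and it averaged 58150 CPM in papilloma and 108900 CPM in cSCC. MiR-205-5p, miR-24-3p and miR-203-3p were the other members of the 5 most abundant over all libraries. The 3p arm ranked 188 to 272 for healthy skin, 178 to 217 for hyperplastic skin, 108 to 150 for papilloma and 85 to 107 for cSCC.

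Papilloma against healthy skin asks what differs in a benign tumour. MiR-21-5p was 4.16-fold higher in papilloma (log2 2.06 ± 0.35 SE, adjusted p = 7.85e-05 by edgeR's quasi-likelihood test), and miR-21-3p was 3.61-fold higher (log2 1.85 ± 0.28 SE, adjusted p = 3.91e-05). The 5 papillomas were above all 5 healthy libraries for both arms. The test called 44.7% of miRNAs in this contrast (24.0% as higher in papilloma), and 27.6% had ranges that did not overlap. By the size of the increase, 5p ranked 30 and 3p ranked 46 of 850, and the median miRNA differed by log2 0.40.

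In cSCC against healthy skin, which sets the malignant tumour against normal tissue, the 5p arm was 7.0-fold higher (log2 2.81 ± 0.36 SE, adjusted p = 6.26e-07 by edgeR's quasi-likelihood test). The 3p arm was 5.86-fold higher (log2 2.55 ± 0.29 SE, adjusted p = 1.46e-07). All 5 carcinomas were above all 5 healthy libraries for both arms. Here 47.5% of miRNAs were called (26.2% as higher in cSCC), and 29.5% had separate ranges. By the size of the increase 5p ranked 11 and 3p ranked 16 of 850, where the median miRNA differed by log2 0.35.

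The size of these increases depended on the scaling more than on any library left out. With TMM factors taken from miRNAs of at least 50 CPM alone, the median of all 850 miRNAs moved by a further log2 0.67 in papilloma against healthy skin and 0.71 in cSCC against healthy skin. MiR-21-5p then stood at log2 2.67 in papilloma and 3.49 in cSCC, each against healthy skin. Relative to the median miRNA of each fit, the 5p arm was higher than in healthy skin by log2 1.59 in papilloma and 2.43 in cSCC with these factors, and by 1.65 in papilloma and 2.46 in cSCC with factors from all tested miRNAs. New factors shift all miRNAs nearly alike, so these values could hardly move. The choice of miRNAs did move them: relative to the median of the 293 miRNAs of at least 50 CPM, fitted alone, 5p was higher by log2 2.54 in papilloma and 3.35 in cSCC. In the fits this cut at 50 CPM was applied before TMM factors, while the 294 miRNAs described below were chosen on CPM with them.

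Hyperplastic skin serves as the second non-tumour tissue. MiR-21-5p was 3.57-fold higher in papilloma than in hyperplastic skin (log2 1.84 ± 0.34 SE, adjusted p = 0.000529 by edgeR's quasi-likelihood test) and 6.0-fold higher in cSCC than in hyperplastic skin (log2 2.59 ± 0.35 SE, adjusted p = 2.44e-06). For miR-21-3p these differences were log2 1.46 ± 0.28 SE (adjusted p = 0.000601) in papilloma and log2 2.16 ± 0.28 SE (adjusted p = 1.5e-06) in cSCC. All 5 libraries of either tumour were above all 5 hyperplastic libraries for both arms. The test called 38.4% of miRNAs in papilloma against hyperplastic skin (21.3% as higher), where 21.9% had separate ranges. It called 44.9% in cSCC against hyperplastic skin (24.5% as higher), where 28.4% had separate ranges. Without hyperplastic 7, whose 5p level stood apart, the 5p differences from hyperplastic skin were log2 1.63 in papilloma and 2.47 in cSCC, both still called. The comparisons with healthy and with hyperplastic skin share their tumour libraries, so they are not separate evidence.

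Hyperplastic against healthy skin asks whether the level differs between the non-tumour tissues. The difference was log2 0.22 ± 0.33 SE for 5p (95% interval -0.46 to 0.91, adjusted p = 0.866 by edgeR's quasi-likelihood test) and log2 0.39 ± 0.27 SE for 3p (95% interval -0.17 to 0.96, adjusted p = 0.676). Neither passed, and the intervals leave room for differences in either direction. No miRNA was called here (0.0% of 850 by edgeR and 0 by DESeq2), although 75 had an unadjusted p under 0.05, and 1.06% had separate ranges. Without hyperplastic 7 the difference was log2 0.34 for 5p (adjusted p = 0.677 by edgeR) and 0.32 for 3p (adjusted p = 0.705). The sign for 5p turned to log2 -0.071 without healthy 7, to -0.044 without hyperplastic 5 and to -0.0605 without hyperplastic 8.

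Carcinoma against papilloma compares the malignant with the benign tumour. The 5p arm was 1.68-fold higher in cSCC (log2 0.75 ± 0.33 SE, 95% interval 0.06 to 1.44), with adjusted p = 0.179 by edgeR's quasi-likelihood test, and the 3p arm 1.62-fold higher (log2 0.70 ± 0.27 SE, 95% interval 0.14 to 1.26), with adjusted p = 0.111. Neither passed the adjusted threshold of 0.05 in a contrast where 11.5% of miRNAs did (6.82% as higher in cSCC) and 6.0% had separate ranges. For each arm, 4 of 5 carcinomas were above all papillomas. A two-sided exact permutation test of log2 CPM gave p = 0.0159 for either arm, and p = 0.019 adjusted over the 6 pairs. Before adjustment, both tests put each arm below 0.05. EdgeR's values were adjusted over 850 miRNAs, so this call depended on the set adjusted over. On the log2 share of mature miRNA reads the 5p difference was smaller, 0.46, with separate ranges (exact permutation p = 0.00794, the smallest that 5 against 5 allows), while the 3p difference of 0.39 had exact p = 0.103. Separate ranges were counted over all miRNAs on CPM only, not on this share.

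**Figure D2:**
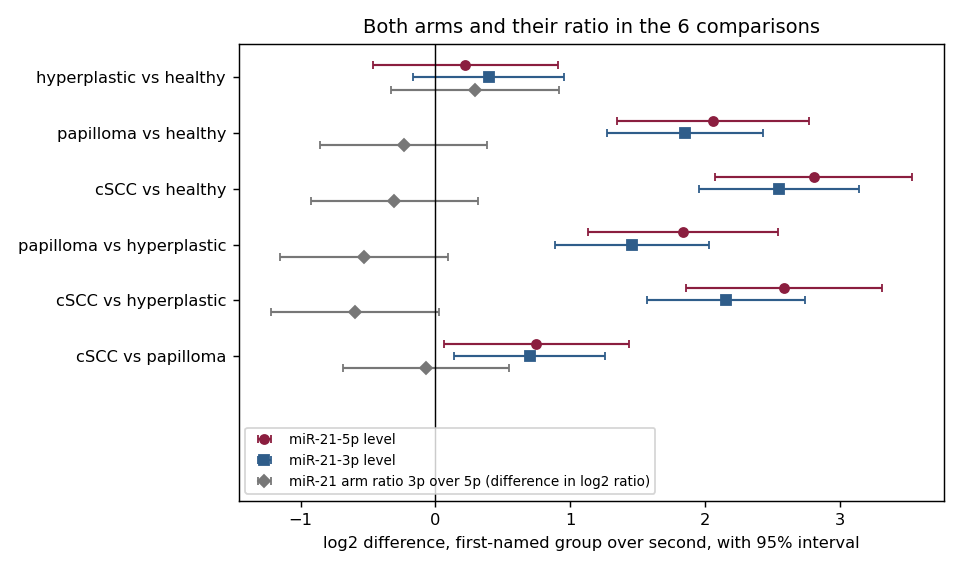
Log2 difference in level of miR-21-5p and miR-21-3p, and difference in the log2 ratio of 3p to 5p, for the 6 comparisons of groups, first-named group over second (edgeR estimates with 95% intervals). The 4 tumour against non-tumour comparisons lie between 1.46 and 2.81 for the arms, and every interval of the arm ratio includes 0.

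The arms came in a very unequal ratio, and that ratio did not differ detectably between groups. Reads of 5p per 3p read numbered 285.3 ± 46.4 for healthy skin, 252.9 ± 102 for hyperplastic skin, 343.4 ± 100 for papilloma and 352.3 ± 60.1 for cSCC (SD, 5 libraries each). Written as the share of both arms' reads, 3p made up 0.3568% ± 0.058 of healthy, 0.5208% ± 0.406 of hyperplastic, 0.3103% ± 0.0893 of papilloma and 0.2888% ± 0.0423 of cSCC libraries (SD, 5 libraries each). Without hyperplastic 7 the hyperplastic values were 296.3 ± 34.7 reads of 5p per 3p read and a 3p share of 0.3398% ± 0.0388 (SD, 4 libraries). A ratio of reads of 2 different sequences also carries how well the library preparation captures each, so it is read here between groups only.

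By library, the 3p share was 0.364%, 0.306%, 0.293%, 0.434% and 0.387% in healthy skin (libraries 2, 3, 4, 5 and 7). It was 0.295%, 0.372%, 0.320%, 1.245% and 0.373% in hyperplastic skin (libraries 1, 2, 5, 7 and 8). Hyperplastic 7 stood far above all other libraries, with a 95% Wilson interval of 1.15% to 1.34%. The share was 0.309%, 0.200%, 0.315%, 0.281% and 0.447% in papilloma (libraries 1, 3, 4, 5 and 6), and 0.303%, 0.302%, 0.219%, 0.333% and 0.287% in cSCC (libraries 1, 2, 3, 4 and 6). The groups overlapped in every pair. Wilson intervals cover counting error only, and the reads carry no molecular identifiers.

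**Figure D3:**
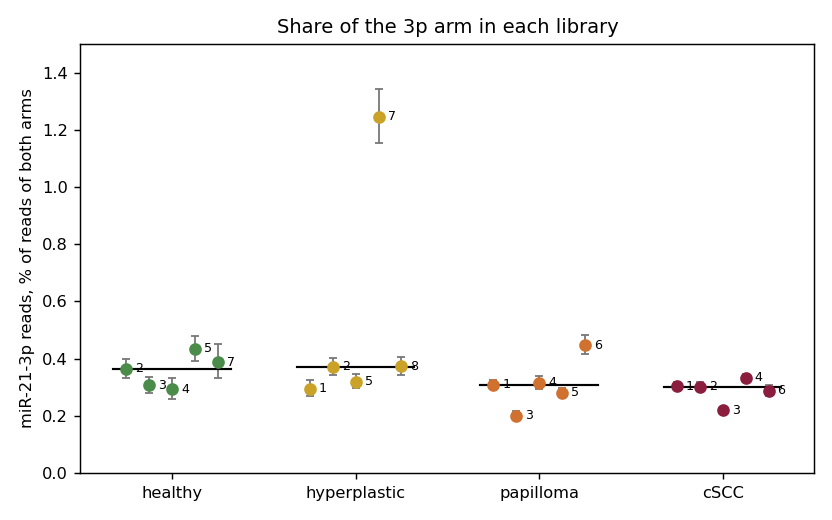
Share of miR-21-3p in the reads of both arms in each library, in percent, with 95% Wilson intervals, label numbers and group medians as lines (n = 5 each). The other libraries lie between 0.200% and 0.447%, and hyperplastic 7 lies at 1.245%.

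The difference in the log2 ratio of 3p to 5p was tested in an edgeR quasi-likelihood fit over the 152 hairpins with both arms counted. Relative to healthy skin it was 0.29 ± 0.30 SE in hyperplastic skin (adjusted p = 0.889), -0.23 ± 0.30 SE in papilloma (adjusted p = 0.673) and -0.30 ± 0.30 SE in cSCC (adjusted p = 0.481). Relative to hyperplastic skin it was -0.53 ± 0.30 SE in papilloma (adjusted p = 0.312) and -0.60 ± 0.30 SE in cSCC (adjusted p = 0.16). Between cSCC and papilloma it was -0.0695 ± 0.30 SE (95% interval -0.68 to 0.55, adjusted p = 0.967). None passed the threshold. The 95% intervals against healthy skin ran from -0.33 to 0.92 in hyperplastic skin, from -0.85 to 0.39 in papilloma and from -0.92 to 0.31 in cSCC. Two-sided exact permutation tests of the log2 ratio gave p of 0.0635 or more in all 6 pairs.

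The estimates that involve hyperplastic skin rested on hyperplastic 7. Without it the difference was -0.062 in hyperplastic against healthy skin, -0.17 in papilloma against hyperplastic skin and -0.24 in cSCC against hyperplastic skin. Leaving it out turned the sign of the first of these and shrank the others.

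Other hairpins did change their arm ratio in the same fit. It called 14.5% of the 152 in papilloma against healthy skin, 24.3% in cSCC against healthy skin, 11.2% in papilloma against hyperplastic skin, 23.0% in cSCC against hyperplastic skin and 3.29% in cSCC against papilloma. In hyperplastic against healthy skin it called 0.0%, where 8 hairpins had an unadjusted p under 0.05. Of called hairpins nearest to miR-21 in abundance, miR-31, induced in proliferating epidermis, had 27.1% ± 10.1 of its reads on the 3p arm in papilloma and 11.9% ± 3.87 in healthy skin (log2 ratio difference 1.46 ± 0.36 SE, adjusted p = 0.00903, n = 5 each). MiR-205, whose 3p arm is also the minor one, had a 3p share of 0.240% ± 0.0584 in cSCC and 0.103% ± 0.031 in healthy skin (difference 1.23 ± 0.27 SE, adjusted p = 0.00353, n = 5 each). The 3p arm is the major one of miR-29a, and its share was 99.94% ± 0.022 in cSCC and 99.9% ± 0.0259 in healthy skin (difference 0.85 ± 0.23 SE, adjusted p = 0.00954, n = 5 each). Others went towards less 3p in papilloma than in healthy skin, among them miR-126 (difference -0.71 ± 0.23 SE, adjusted p = 0.0434) and miR-23a (-1.39 ± 0.28 SE, adjusted p = 0.00174). Over all libraries, the minor arm of miR-21 made up 0.31% of its reads, against a median of 11.9% over the 152 hairpins, of which 11 had a smaller minor arm. MiR-21 ranked 3 among them by summed abundance. Hairpins needed a mean of at least 20 counts in each arm, so scarce ones with so small a minor arm were excluded. That filter partly sets the median, and capture also differs between hairpins, so no trait of miR-21 is read from it.

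The spread between libraries was described for each arm and was not tested, and neither arm was the wider one in every group. The SD of log2 CPM of 5p was 0.63 for healthy, 0.98 for hyperplastic, 0.36 for papilloma and 0.35 for cSCC libraries. For 3p it was 0.53, 0.32, 0.34 and 0.42 in the same order. Without hyperplastic 7 the SD in hyperplastic skin was 0.33 for 5p and 0.36 for 3p, so the wide 5p spread there rested on that library. That library was the deepest of all, at 10117810 counts, and held 52501 reads of 5p and 662 of 3p. Its 5p level differed by log2 -2.15 from the median of the other 4 hyperplastic libraries, and only 2 of 294 miRNAs of at least 50 CPM lay lower, miR-31-5p at -2.30 and miR-211-5p at -2.20, which were named after their values were seen. Its 3p level differed by only -0.16. In healthy 7, by contrast, both arms lay low against the other healthy libraries, 5p at log2 -1.08 and 3p at -1.0, with an ordinary ratio.

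To set miR-21-5p against epithelial RNA of the same library, its reads were divided by those of miR-205-5p, which is enriched in stratified epithelia. The ratio was 0.238, 0.530, 0.344, 0.210 and 0.119 in healthy libraries 2, 3, 4, 5 and 7, and 0.382, 0.302, 0.506, 0.0843 and 0.472 in hyperplastic libraries 1, 2, 5, 7 and 8. In all 10 of these libraries miR-205-5p thus had more reads than miR-21-5p. In papilloma libraries 1, 3, 4, 5 and 6 it was 1.44, 1.345, 1.63, 1.38 and 1.47, and in cSCC libraries 1, 2, 3, 4 and 6 it was 2.59, 3.81, 2.13, 5.05 and 2.89. The order was reversed in all 10 tumours, the papillomas fell within a narrow band, and no carcinoma overlapped them. How many other miRNAs separate the tumours when divided by miR-205-5p was not counted.

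On the log2 scale the ratio was 2.51 higher in papilloma than in healthy skin, 3.62 higher in cSCC than in healthy skin and 1.11 higher in cSCC than in papilloma. Each of these differences, and those of both tumours from hyperplastic skin, had exact permutation p = 0.00794 (two-sided, the smallest that 5 against 5 allows) and 0.00952 adjusted over the 6 pairs. Hyperplastic and healthy skin differed by 0.22 (exact permutation p = 0.714), and by 0.67 without hyperplastic 7 (exact permutation p = 0.175). Per read of miR-203-3p, which is induced as keratinocytes leave the basal layer, the cSCC minus papilloma difference was larger, log2 2.35, and that of cSCC minus healthy skin was 4.72, both with exact permutation p = 0.00794. The denominators moved as well: miR-203-3p was lower in cSCC than in healthy skin by edgeR (log2 -1.83, adjusted p = 4.3e-06). For miR-205-5p, the difference of cSCC from healthy skin was log2 -0.69 (adjusted p = 0.021 by edgeR) but 0.03 with the factors from miRNAs of at least 50 CPM, so its direction depended on the scaling.

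**Figure D4:**
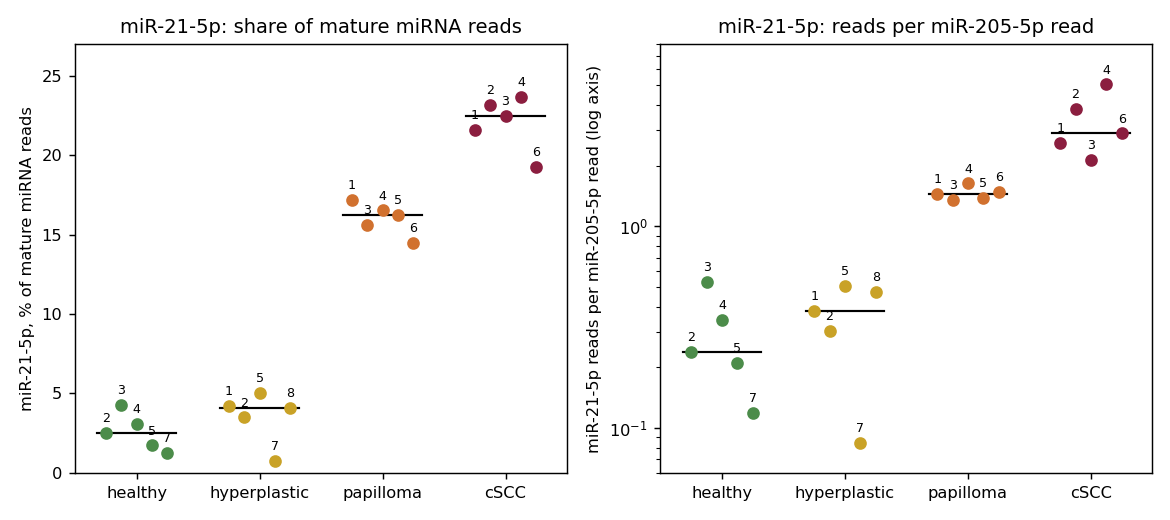
Left, miR-21-5p as a percentage of mature miRNA reads in each library. Right, miR-21-5p reads per miR-205-5p read on a log axis, with label numbers and group medians as lines (n = 5 each). The groups of tumours do not overlap each other or non-tumour skin in either panel, and the right panel crosses 1 between non-tumour skin and papilloma. Separate ranges over all miRNAs were not counted on either scale.

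Among 294 miRNAs of at least 50 CPM, likeness to each arm was measured as the root mean square difference of log2(CPM + 1) profiles over the 20 libraries, after each profile was centred. The nearest to miR-21-5p was its own partner miR-21-3p, at 0.51 log2 units, against a median of 1.71 over all others. Next came miR-7a-5p at 0.75, miR-3473d at 0.78, miR-31-3p at 0.81 and miR-1192 at 0.84. For miR-21-3p the nearest were miR-21-5p at 0.51, miR-494-3p at 0.55, miR-7a-5p at 0.64, miR-3473d at 0.66 and miR-541-5p at 0.73. These values describe the same 20 libraries and share their depth and scaling, so they carry no test.

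MiR-7a-5p, which in human cells represses the EGF receptor, averaged 184.5 CPM over healthy, 205.1 over hyperplastic, 791.4 over papilloma and 1061 over cSCC libraries. MiR-31-3p, from the same hairpin as the epidermal miR-31-5p, averaged 1221, 2897, 7737 and 14310 CPM in the same order. Its difference of hyperplastic from healthy skin, log2 1.25, did not pass (adjusted p = 0.442 by edgeR). MiR-494-3p and miR-541-5p both come from the imprinted Dlk1-Dio3 region. MiR-494-3p averaged 47.56, 66.34, 96.79 and 202.8 CPM in the same order. MiR-541-5p averaged 102.3, 168.4, 157.6 and 340.4 CPM, so its mean in papilloma was no higher than in hyperplastic skin. The closest mirror images of miR-21-5p were miR-676-3p at 0.61, miR-338-3p at 0.63 and miR-10b-5p at 0.66. MiR-10b-5p, encoded within a Hox gene cluster, was lower in cSCC than in healthy skin (log2 -2.56, adjusted p = 6.63e-08 by edgeR).

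**Figure D5:**
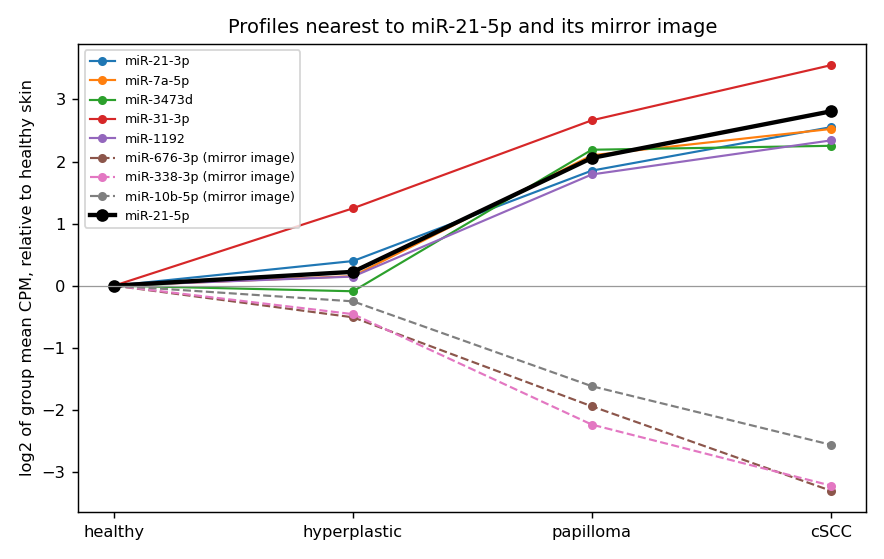
Group mean CPM on a log2 scale relative to healthy skin, for miR-21-5p (black), the 5 miRNAs with the nearest profile (solid) and the 3 with the closest mirror-image profile (dashed). The nearest profiles stand at 2.25 to 3.55 in cSCC, with miR-31-3p above the others in hyperplastic skin (1.25), and the mirror images stand at -2.56 to -3.30 in cSCC.

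Other miRNAs reported elsewhere to answer AP-1, STAT3, NF-kB or Ras signalling, the kind of input that also drives the miR-21 gene, were called in both directions. Of 30 tested, 12 were higher and 6 lower in cSCC than in healthy skin (median log2 0.52, against 0.35 over all miRNAs). Over all 850 miRNAs, 26.2% were higher and 21.3% lower in that contrast. In papilloma against healthy skin, 8 of the 30 were higher and 9 lower (median 0.23, against 0.40), where 24.0% of all miRNAs were higher and 20.7% lower. MiR-31-5p averaged 92890 ± 46500 CPM in cSCC and 8259 ± 3830 CPM in healthy skin, and rose (log2 3.49, adjusted p = 3.38e-05 by edgeR, n = 5 each). MiR-125b-5p fell in cSCC, to 12070 ± 3010 CPM against 24650 ± 4710 CPM in healthy skin (log2 -1.03, adjusted p = 0.00755 by edgeR, n = 5 each), but did not pass with the factors from miRNAs of at least 50 CPM (adjusted p = 0.214). With those factors the counts for the list were 17 higher and 3 lower in cSCC, and 14 higher and 1 lower in papilloma, each against healthy skin. The shares over all miRNAs moved as well, to 53.1% higher and 12.0% lower in cSCC and 50.1% higher and 8.59% lower in papilloma, so the counts of higher members lay near the background. Between cSCC and papilloma, where miR-21-5p did not pass, 7 of the 30 were higher in cSCC and 1 lower, against 6.82% higher and 4.71% lower over all miRNAs.

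MiR-21 is also made by leukocytes and stromal cells, and some of their marker miRNAs differed between the same samples. The summed level of the leukocyte list was 21150 to 39010 CPM for healthy skin, 12150 to 25100 CPM for hyperplastic skin, 16850 to 62000 CPM for papilloma and 49330 to 112300 CPM for cSCC. Of 14 leukocyte miRNAs tested of 16 in the table, 2 were higher and 3 lower in cSCC than in healthy skin, and 1 was higher and 5 lower in papilloma than in healthy skin. The shares over all 850 miRNAs were 26.2% higher and 21.3% lower in cSCC, and 24.0% higher and 20.7% lower in papilloma. With the factors from miRNAs of at least 50 CPM these counts turned to 4 higher and 3 lower in cSCC, and 3 higher and 0 lower in papilloma, where 53.1% and 50.1% of all miRNAs were higher. The myeloid miR-223-3p, which carries much of that sum, was higher in cSCC (69580 ± 24100 CPM, against 18830 ± 4420 CPM in healthy skin, log2 1.89, adjusted p = 0.000173 by edgeR, n = 5 each), while the lymphocyte miR-150-5p was lower (1110 ± 472 CPM, against 4914 ± 2510 CPM, log2 -2.15, adjusted p = 0.000108). No leukocyte marker was at 0 in all libraries: the 2 untested, miR-155-3p and miR-146a-3p, had at most 9 and 16 counts in a library. This list shares 8 members with the signalling list. The part of leukocytes in the miR-21 difference was not tested.

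Most muscle miRNAs were lower in the tumours. All 4 smooth muscle members, led by miR-145-5p and miR-143-3p, and 8 of 11 tested striated muscle members were lower in cSCC than in healthy skin, and 2 striated members were higher, against 21.3% lower and 26.2% higher over all miRNAs. Muscle miR-1a-3p averaged 1727 ± 770 CPM in cSCC and 29280 ± 13900 CPM in healthy skin (log2 -4.08, adjusted p = 9.46e-07 by edgeR, n = 5 each). Untested striated members, among them both arms of miR-208a and miR-208b of heart muscle, had at most 15 counts in a library.

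The fibroblast list summed to 210300 to 403000 CPM for healthy skin, 149800 to 320600 CPM for hyperplastic skin, 74480 to 120700 CPM for papilloma and 105200 to 215200 CPM for cSCC. Much of each sum was miR-29a-3p, which averaged 160300, 120400, 58150 and 108900 CPM in the same order of groups. The hyperplastic sums fell into 2 sets. Libraries 1, 2 and 5 had 149800 to 155400 CPM, while hyperplastic 7 and 8 had 320600 and 302700 CPM, within the healthy range. The miR-21-5p level was low in hyperplastic 7 (9919 CPM) but not in hyperplastic 8 (50380.4 CPM). Of the 17 members of this list, 11 were lower and 0 higher in cSCC than in healthy skin. With the factors from miRNAs of at least 50 CPM, 5 were lower and 4 higher. The counts of these lists stand against 21.3% lower and 26.2% higher over all miRNAs in cSCC, or 12.0% lower and 53.1% higher with those factors. Both arms of the endothelial miR-126 were lower in cSCC than in healthy skin, and neither passed with those factors. Of 13 keratinocyte members tested, 5 were lower and 0 higher in cSCC than in healthy skin, but 3 were lower and 5 higher with those factors. In papilloma against healthy skin, 3 keratinocyte members were lower and 0 higher, but 0 were lower and 4 higher with those factors, so that the direction of this list depended on the scaling. Over all miRNAs 20.7% were lower and 24.0% higher in papilloma, and 8.59% lower and 50.1% higher with those factors. Of 5 erythroid miRNAs, 0 were higher and 2 lower in cSCC than in healthy skin, but 1 was higher and 0 lower with those factors, and the sums overlapped in all 4 groups. The part of the tissue make-up of each biopsy in the miR-21 level was not tested.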

How the data were processed

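Per the labels, total RNA was extracted from 20 mouse skin samples (4 groups of 5) and small RNA libraries were sequenced on the SOLiD system. The authors deposited 1 table of whole-number counts per small RNA feature, not normalized. Its build is mm9, per the submitters' processing notes. For aligner, counter, annotation release and the handling of reads with several matches, no statement is given by the labels or the file header. Of its 1172 entries of type miRNA, the 1137 that carry a mature miRNA identifier were used. All 20 value columns matched a sample by title, and 0 pairs of libraries were identical.

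Levels were tested with edgeR 4.0.16 (quasi-likelihood fit, TMM factors of 0.637 to 1.67, 1 term per group, all 20 libraries) on 850 mature miRNAs kept by filterByExpr (minimum count 10, minimum total 15), with Benjamini-Hochberg adjustment over the 850 and a threshold of 0.05. The arm ratio was tested as the arm-by-group term of a fit of 40 columns (both arms of each library, with library as a block) over 152 hairpins with a mean of at least 20 counts in each arm. The scripts were tested on simulated counts. Exact permutation tests used all 252 splits of 5 against 5. Marker lists followed textbook knowledge. The members, lists and named miRNAs were chosen with earlier results of these data known. Named miRNAs were the 5 nearest profiles to each arm, the 3 mirror images, the 5 most abundant, up to 3 of the highest level per list, and the 3 called hairpins nearest in abundance. Alternatives were DESeq2 1.42.0 and limma 3.58.1 (with a pseudocount of 0.5), other factors, filters and features, a replicate block, each pair of groups alone, and leaving out each library. The labels do not say whether the replicate numbers pair the samples, and the main fit did not use them.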

Additional observations from a re-analysis of the deposited data

Results flagged for a closer look

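The share of miR-21-3p in the reads of both arms was 1.245% in hyperplastic 7, against 0.295% to 0.373% in the other 4 hyperplastic libraries. Its gap to the nearest of the others took up 0.918 of the range of its group. Of 16 combinations of group and measure checked in this way it was the only one to stand out, and chance alone picks about 1 in 20. The library had 52501 reads of miR-21-5p and 662 of miR-21-3p. In the arm ratio, 2 of 152 hairpins deviated more in that library, both towards less 3p. These were miR-195, with a 3p share of 0.120% against 0.344% to 0.664% in the other hyperplastic libraries, and miR-1930, with 8.475% against 23.7% to 39.5%, on 54 reads of 5p and 5 of 3p.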

How the results depend on the processing

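Both arms stayed higher in both tumours than in healthy and hyperplastic skin, and past the threshold, under all 13 other settings and all 20 omissions of a library. The 5p difference ran from log2 1.67 to 2.77 in papilloma and 2.51 to 3.49 in cSCC against healthy skin, and from 1.44 to 2.43 and 2.28 to 3.18 against hyperplastic skin. No edgeR or limma setting called a difference in the arm ratio. The SD of its log2 within groups was 0.51, and 0.17 in hyperplastic skin without hyperplastic 7, while 168 reads of 3p, the fewest in a library, gave a 95% Wilson interval of 0.333% to 0.450% for its share.

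Calls that changed were mostly of cSCC against papilloma. The 5p arm passed in a fit of these groups alone (0.81, adjusted p = 0.0314 by edgeR), and by exact permutation on log2 CPM (0.75) and on the log2 share (0.46). The 3p arm passed among miRNAs of at least 50 CPM alone (0.72, adjusted p = 0.0419 by edgeR) and by exact permutation on log2 CPM (0.68). The 3p arm also passed in hyperplastic against healthy skin by exact permutation on the log2 share (0.65, adjusted p = 0.0476). Both exact tests were chosen after seeing the data, and were adjusted over the 6 pairs of groups, not over miRNAs. They give the lowest value of each range that follows. Over the 13 settings, adjusted p for cSCC against papilloma ran from 0.00952 to 0.352 for 5p and from 0.019 to 0.354 for 3p, and for 3p in hyperplastic against healthy skin from 0.0476 to 0.807.

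Same-numbered samples of different groups did not deviate together more than others did. Of their 17 pairs, 2 had a correlation over 0.1 (median -0.016), against 29 of 133 differently numbered pairs (median 0.005). With the replicate number as a block, 5p passed in cSCC against papilloma (0.81, adjusted p = 0.0315 by edgeR), and the called miRNAs numbered 4 in hyperplastic against healthy skin, 240 in papilloma against healthy skin, 82 in papilloma against hyperplastic skin and 190 in cSCC against hyperplastic skin. Hairpins called with this block in limma numbered 5 in papilloma against healthy skin, 0 in papilloma against hyperplastic skin, 3 in cSCC against hyperplastic skin and 0 in cSCC against papilloma.

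Among miRNAs of at least 50 CPM, 145 were called in papilloma and 183 in cSCC against healthy skin, and 87 in papilloma and 149 in cSCC against hyperplastic skin, with 293 tested. In a fit of all small RNA features, 5 were called in hyperplastic and 675 in cSCC against healthy skin, and 639 in cSCC against hyperplastic skin, with 1522 tested. With at least 100 counts in each arm (71 hairpins), 8 hairpins were called in papilloma and 18 in cSCC against healthy skin, 2 in papilloma and 19 in cSCC against hyperplastic skin, and 0 in cSCC against papilloma. With at least 5 counts (289 hairpins), 59 were called in cSCC against healthy skin and 1 in cSCC against papilloma. For cSCC against papilloma, limma called 2 and the fit of these groups alone 0, where edgeR's main count was 5.

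Leaving out each library in turn, 5p in hyperplastic against healthy skin ran from -0.071 (without healthy 7) to 0.36, with the sign also turned without hyperplastic 5 (-0.044) or hyperplastic 8 (-0.0605), and the arm ratio there from -0.062 (without hyperplastic 7) to 0.44. The arm ratio in cSCC against papilloma ran from -0.22 to 0.074, turning without papilloma 6 or cSCC 3 (0.026). By exact permutation the ratio ran from -0.062 to 0.46 in hyperplastic against healthy skin, -0.37 to -0.21 in cSCC against healthy skin (p = 0.0317 without healthy 4), -0.76 to -0.24 in cSCC against hyperplastic skin (p = 0.0317 without hyperplastic 1, 0.0476 without cSCC 4) and -0.22 to 0.0745 in cSCC against papilloma. MiR-21-5p per miR-205-5p in hyperplastic against healthy skin ran from -0.055 (without healthy 7) to 0.67, and was -0.072 per miR-203-3p. Called miRNAs numbered 0 to 2 in hyperplastic against healthy skin (2 without healthy 4) and 55 to 100 in cSCC against papilloma (55 without cSCC 4, 64 without papilloma 3). Called hairpins numbered 7 to 25 in papilloma against healthy skin (7 without papilloma 6), 6 to 19 in papilloma against hyperplastic skin (6 without hyperplastic 7), 20 to 38 in cSCC against hyperplastic skin (20 without cSCC 3) and 0 to 8 in cSCC against papilloma (8 without cSCC 6). The cause of these changes was not tested.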
